A study of Mus musculus with 18 samples.

Results

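The 6 genes described here encode proteins that place or bind 5-methylcytosine (m5C) in RNA, and were chosen by name. Nsun2, Nop2, Nsun5 and Nsun6 encode RNA cytosine methyltransferases (writers), and Alyref and Ybx1 encode m5C-binding proteins (readers). Rows of the RNA table that carried one of these symbols, alone or joined to others, were taken, as was every listed m5C site inside the span that RefSeq gives the gene. Of the 6 genes, 4 had a row among 14864 loci (Nsun2, Nop2, Alyref and Ybx1, each as the only symbol of its row), and all 4 passed the filter of a mean of at least 1 RPKM (reads scaled to transcript length and library size). Nsun5 and Nsun6 had no row and no listed site, so nothing was measured for them. The genes held 7 of the 7870 distinct sites listed.

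Mouse embryonic stem cells, either wild type or with a knockout of Tet2 (labelled Tet2 KO), were grown with LIF on mouse fibroblast feeders. Tet2 encodes a dioxygenase that oxidises 5-methylcytosine. For RNA levels, each genotype had 1 sequenced library from untreated cells (0 h) and 1 each after 3 and 6 h with actinomycin D at 5 µg/ml, a drug that blocks transcription. For m5C, each genotype had 2 bisulfite replicates from untreated cells, and cytosines left unconverted were taken as methylated. The labels name neither the strain, the deleted part of Tet2 nor the number of clones. They also do not say that the bisulfite replicates were separate cultures, so the spread behind each site p-value may be technical. RNA had no replicate libraries. The spread behind each RNA p-value is therefore the departure of single libraries from the fitted genotype and time terms. In bulk RNA, fewer expressing cells and less RNA per cell cannot be told apart.

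The writers belong to the NOL1/NOP2/SUN family, which moves a methyl group from S-adenosylmethionine to a carbon of the cytosine ring and so makes m5C. NSUN2 methylates many transfer RNAs and is the main writer of m5C in messenger RNA. NOP2 is a nucleolar protein that methylates and helps to assemble the large ribosomal subunit, NSUN5 methylates another position of the same ribosomal RNA, and NSUN6 methylates transfer RNAs and a motif in some messenger RNAs. ALYREF is an adaptor of messenger RNA export and a reader of m5C in human and mouse cells, and YBX1 is a cold shock domain protein that binds and stabilises methylated messenger RNA in human cells and zebrafish embryos.

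Read numbers were not given, and low values did not settle the relative depth: of loci under 0.3 RPKM, 15.6% to 45.0% had a ratio to the knockout 3 h library that matched whole reads (within 0.002 on the natural log scale), and in each library a second solution matched nearly as many. The median RPKM of a library lay between 3.43 and 5.48. Between 4 and 78 tested loci of a library were over 3-fold above all other libraries, 49 of them in the knockout 3 h library. Summed over 6 of 8 pluripotency markers, RPKM lay between 827 and 1152 in the 6 libraries, highest at 3 h in both genotypes. Most of that sum came from Pou5f1 and Tdgf1. Of the 6 markers, 3 had a genotype difference below 0, and 1, Zfp42, passed at an adjusted p under 0.05 as lower in the knockout. Its level over 0, 3 and 6 h was 120, 52.5 and 24.7 RPKM for wild type and 30.6, 10.8 and 6.79 for the knockout, a log2 difference of -1.95 (limma adjusted p = 0.0434) and a slope of -0.35 per h (adjusted p = 0.00725). The genotype call ended without any 1 of the 6 libraries (limma adjusted p between 0.0552 and 0.399) and with quantile normalization (0.0814). It also ended with no filter (0.0734), no mean trend (0.0823) and no time term (0.796). The difference stayed between -2.06 and -1.83 in these fits. The slope call ended without the wild type 6 h library (0.0948), in the knockout libraries alone (0.390) and for 3 h against 0 h (0.0856). Summed over 7 of 10 fibroblast markers, it lay between 95.4 and 149 in the wild type libraries and between 86.9 and 116 in the knockout libraries, also highest at 3 h in both genotypes, the time at which Alyref peaked too. The part of feeder RNA or of cell state in the results was not tested.

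The promoters of the 4 measured genes are shown because actinomycin D stops synthesis from these starts. Whether their motifs bear on the RNA levels or courses described below was not tested. Each line gives the 150 bases before the start that the RefSeq promoter table uses (GRCm38.p6). That start is the first base of the gene span for Nsun2 and Nop2, but lies 34 bases inside the span for Alyref and 1752 bases inside it for Ybx1, so the window of Ybx1 is within the gene and that of Alyref overlaps its first bases. The sequences are written in the direction of transcription, with matches to 6 motifs, on either strand, in capitals. The motifs were the GC box (GGGCGG), the CCAAT box, the E-box (CACGTG), the TATA box (TATAAA), the core of ETS factor sites (TTCCGG) and the cyclic AMP response element (TGACGTCA). No base lay in more than one motif.
Ybx1, chr4:119294514-119294663, minus strand: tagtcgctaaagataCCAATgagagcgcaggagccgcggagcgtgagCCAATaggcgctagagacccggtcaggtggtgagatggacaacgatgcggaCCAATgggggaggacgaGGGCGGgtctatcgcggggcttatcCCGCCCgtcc
Alyref, chr11:120598366-120598515, minus strand: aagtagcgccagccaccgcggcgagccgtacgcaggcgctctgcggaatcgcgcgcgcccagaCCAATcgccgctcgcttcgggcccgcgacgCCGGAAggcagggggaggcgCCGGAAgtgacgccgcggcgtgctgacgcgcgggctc
Nsun2, chr13:69611866-69612015, plus strand: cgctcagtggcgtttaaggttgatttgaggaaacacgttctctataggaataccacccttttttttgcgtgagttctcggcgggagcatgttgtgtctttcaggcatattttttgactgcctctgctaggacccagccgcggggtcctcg
Nop2, chr6:125131733-125131882, plus strand: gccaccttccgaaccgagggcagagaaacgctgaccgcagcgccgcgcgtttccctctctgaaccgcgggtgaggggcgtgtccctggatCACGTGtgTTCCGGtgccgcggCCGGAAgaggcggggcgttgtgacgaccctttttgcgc

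The windows of the 2 readers shared the CCAAT box, with 3 copies before Ybx1 and 1 before Alyref, and the window of Ybx1 also held 2 GC boxes. Alyref and Nop2 each held 2 ETS cores, and Nop2 held 1 E-box. None of the 6 motifs was in the window of Nsun2, which says only that these letters are not there. Over 32851 windows of the same length, 24.5% held a CCAAT box, 28.6% a GC box, 9.23% an ETS core, 4.30% an E-box, 7.57% a TATA box and 1.36% a cyclic AMP response element. The share of G and C was 62.7% before Ybx1, 76.0% before Alyref, 50.7% before Nsun2 and 68.0% before Nop2, against a median of 54.0% over all windows.

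The readers had the most RNA and the nucleolar writer the least. Ybx1 averaged 202 RPKM ± 26.9 (SD over the 6 libraries, which span both genotypes and all times), Alyref 120 ± 21.0, Nsun2 82.7 ± 9.31 and Nop2 30.2 ± 8.06. The order was the same in every library, and no neighbours overlapped: the lowest Ybx1 value was 171 RPKM against a highest Alyref value of 148, the lowest Alyref value was 99.0 against a highest Nsun2 value of 90.0, and the lowest Nsun2 value was 67.1 against a highest Nop2 value of 40.7. Ybx1 stood at the 97.0th to 97.7th percentile of all loci of a library, and Nop2 at the 83.0th to 89.0th. A pseudogene row, Ybx1-ps2, was listed at 9.24% to 13.3% of the RPKM of Ybx1. How reads shared between such copies were assigned is not given, so how far they affect the level of Ybx1 is not known.

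**Figure D1:**
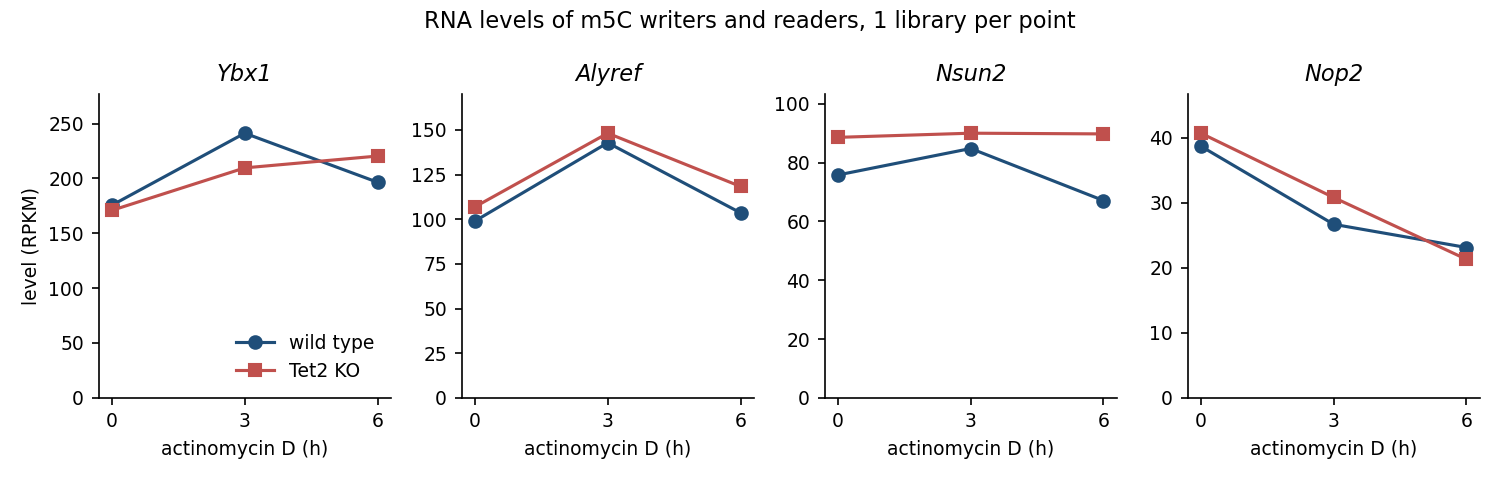
RPKM (vertical axis, from 0) against hours of actinomycin D for the 4 measured genes in wild type (circles) and Tet2 KO (squares), 1 library per point. Nop2 is lower at 3 and 6 h than at 0 h in both genotypes, while Alyref is highest at 3 h in both, at 143 and 148 RPKM.

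The first comparison asked whether the genotypes differed in these RNAs. Nsun2, the main messenger RNA writer, showed the widest difference. Over 0, 3 and 6 h, wild type stood at 75.8, 84.8 and 67.1 RPKM, while the knockout stood at 88.6, 90.0 and 89.8. The 3 knockout libraries lay above the 3 wild type libraries, at 117%, 106% and 134% of the wild type level of the same time. The share of all loci that separate in this way is not given here, so the separation alone does not mark out Nsun2. The log2(RPKM + 1) difference of 0.24 (95% interval -0.15 to 0.63) did not pass in limma with time as a block (adjusted p = 0.621 over all loci).

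The nucleolar writer Nop2 and both readers were closer between the genotypes, and their libraries overlapped. Nop2 stood at 38.7, 26.7 and 23.1 RPKM over 0, 3 and 6 h in wild type, and the knockout at 40.7, 30.8 and 21.3. The log2 difference was 0.05 (interval -0.36 to 0.46, limma adjusted p = 0.926). The export adaptor Alyref stood at 99.0, 143 and 104 RPKM in wild type, and the knockout at 107, 148 and 118, which is 108%, 104% and 114% of wild type and so higher at each time. The difference was 0.12 (-0.25 to 0.48, limma adjusted p = 0.790). Ybx1 stood at 176, 241 and 197 RPKM in wild type, and the knockout at 171, 210 and 220, so its sign differed between the times. The difference was -0.03 (-0.41 to 0.36, limma adjusted p = 0.967).

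Of the 4 genes, 0 passed with limma and 0 had an unadjusted p under 0.05. Over all 11855 loci tested 9 passed, or 0.0759% (0.00844% higher and 0.0675% lower in the knockout), and 1285 had an unadjusted p under 0.05. Against that share, 0 of 4 is no result about these genes. The median difference was 0.09 over the 4 and 0.04 over all loci. The signs for Ybx1 and Nop2 turned with quantile normalization (0.01 and -0.02) and without the 3 h library of either genotype (0.06 and -0.02).

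The second comparison asked how these RNAs fared once transcription was blocked. RPKM are relative to the library, so a stable RNA can take a larger share as others are lost. Of the 4 genes, Nop2 alone had a lower level at each later time in both genotypes. At 3 h it stood at 69.0% of the 0 h value in wild type and at 75.7% in the knockout. At 6 h it stood at 59.7% and 52.4%, where the median of all tested loci was 75% and 82.4%. At that time 34.9% of tested loci stood lower than Nop2 in wild type and 25.3% in the knockout. The 0 h libraries of both genotypes lay above the other 4. The share of all loci that split by time in this way is not given here, so the split alone does not mark out Nop2. The slope of Nop2 was -0.14 per h on the log2(RPKM + 1) scale (SE 0.04, 95% interval -0.22 to -0.05), and its unadjusted p of 0.00808 did not survive adjustment in limma (adjusted p = 0.0740).

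**Figure D2:**
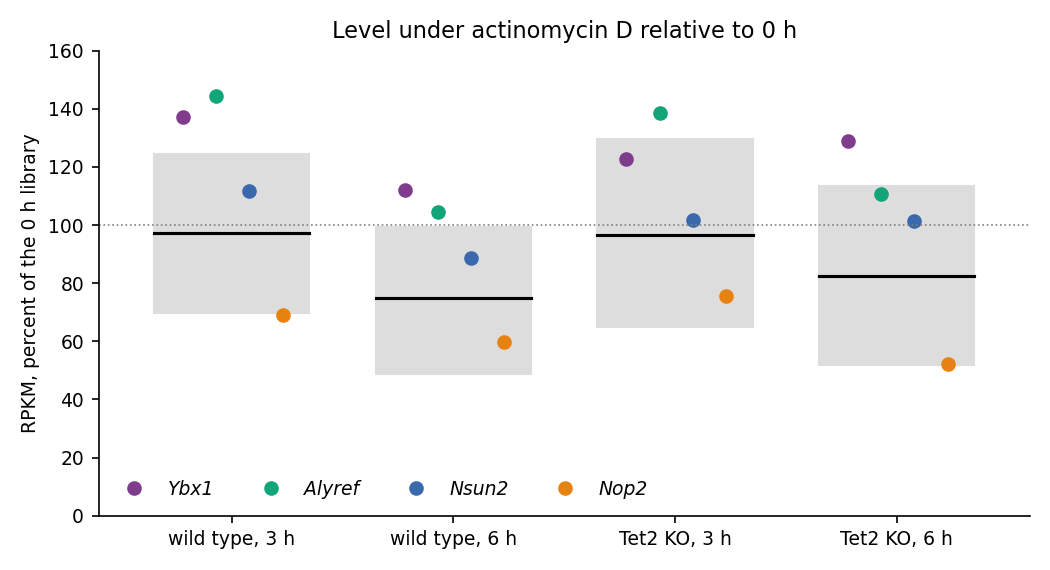
RPKM at 3 and 6 h as a percent of the 0 h library of the same genotype (vertical axis). Points are the 4 genes, 1 library each, grey boxes the middle 50% of 11855 tested loci and black lines their medians. Ybx1 and Alyref lie above the median in all 4 columns and Nop2 below it in all 4.

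Alyref, the export adaptor, had its highest level at 3 h in both genotypes. The 3 h libraries, at 143 and 148 RPKM, lay above the other 4, which ran from 99.0 to 118. How many of all loci do the same is not given here, so this alone does not mark out Alyref. The 3 h values were 144% and 139% of the 0 h values, against medians of 97.4% and 96.7% over all loci. With the times as levels of a factor, 3 h against 0 h gave a log2 difference of 0.50 (SE 0.18, unadjusted p = 0.0349), which did not pass in limma (adjusted p = 0.304). Its slope of 0.02 per h (adjusted p = 0.880) does not describe a course that peaks in the middle.

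Ybx1 was also above its 0 h level at both later times. Wild type was highest at 3 h, at 241 RPKM, and the knockout at 6 h, at 220, and both 0 h libraries lay below the other 4. For this split too, the share of all loci is not given here. At 6 h it stood at 112% and 129% of the 0 h value, a share above that of 82.9% of loci in wild type and 84.7% in the knockout. The slope was 0.04 per h (interval -0.05 to 0.14, limma adjusted p = 0.591).

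Nsun2 had the flattest course. At 6 h it stood at 88.5% of the 0 h level in wild type and 101% in Tet2 KO, and its slope was -0.01 per h (interval -0.10 to 0.08, limma adjusted p = 0.895). The sign turned with quantile normalization (0.02) and when libraries were centred on their medians (0.07). That centring moved the median slope of all loci from -0.05 to 0.03, and it moved Alyref from 0.02 to 0.10, Ybx1 from 0.04 to 0.12 and Nop2 from -0.14 to -0.06. With it Nop2 had an unadjusted p of 0.139, while Ybx1 (0.00495), Alyref (0.0374) and Nsun2 (0.0477), with slopes above 0, were under 0.05, and none passed in limma (adjusted p from 0.101 to 0.324). In all, without centring, 0 of the 4 genes passed with limma and 1, Nop2, had an unadjusted p under 0.05, beside 952 of 11855 loci that passed (8.03%, with 7.91% falling) and 2820 at an unadjusted p under 0.05. The median slope was 0.00 over the 4 genes.

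The slope was then compared between the genotypes. The differences, Tet2 KO minus wild type, were 0.01 per h for Alyref, 0.03 for Ybx1, 0.03 for Nsun2 and -0.03 for Nop2, with a median of 0.02 over the 4 and 0.02 over all loci. The widest of the 4 intervals, that of Alyref, ran from -0.23 to 0.25, which is wider than any slope of the genes themselves. None of the 4 passed in limma (adjusted p = 1.00 for each) and none had an unadjusted p under 0.05. Over all loci 0 passed (0%) and 488 had an unadjusted p under 0.05.

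Among the 4 genes, Alyref and Ybx1 were the most similar pair, with a root mean square difference of 0.14 between their log2 profiles, each centred on its own mean over the 6 libraries. The least similar pair was Nop2 and Ybx1, at 0.48. Of 8570 other named loci with 1 symbol, the closest to Ybx1 were Mprip at 0.02, Arpp19 at 0.04 and Arf4 at 0.04. Those closest to Alyref were Rnf11 at 0.04, Psmd4, a subunit of the proteasome, at 0.05 and Wwtr1 at 0.05. Closest to Nsun2 were Rab2a at 0.03, the translation initiation factor subunit Eif2s2 at 0.04 and Gab1 at 0.04, and closest to Nop2 were Rcor2 at 0.05, Mettl2, a transfer RNA methyltransferase, at 0.06 and Sfmbt2 at 0.07. Many loci lay close to each gene. Between 13% and 28.2% of candidates were within 0.25, so such likeness over 6 libraries is a description only.

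The third set of values asked whether the transcripts of the writers and readers carry m5C themselves. Listed sites were found in Ybx1, Nop2 and Nsun2 and in none of Alyref, Nsun5 and Nsun6. There were 7 sites, 3 in both genotypes, 1 in wild type only and 3 in Tet2 KO only, with levels from 0.101 to 0.261. All 7 were on the strand of the gene. Positions are those of the deposited tables (mm10 or GRCm38 per the processing notes), and the base they name was C at all 75 listed sites that fell in a RefSeq promoter window on the same strand. Exon, intron and untranslated positions were not analysed here, since no exons were used.

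Ybx1 (chromosome 4, 119277327 to 119296265, minus strand) held 3 sites. The strongest, at 119282380, read 0.180 and 0.212 for the wild type replicates, while the knockout read 0.117 and 0.189, so the replicates of the genotypes overlapped. The site at 119278972 read 0.111 and 0.157 for wild type, while the knockout read 0.141 and 0.101, which also overlapped. The third, at 119278180 and 853 bases from the gene end, was listed in Tet2 KO only, at 0.111 and 0.105, close to the lowest level listed in either table, 0.1.

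Nop2 (chromosome 6, 125131883 to 125144753, plus strand) held 2 sites. The site at 125144617, only 136 bases from the gene end, read 0.111 and 0.143 for wild type, while the knockout read 0.107 and 0.129, both inside or just below the wild type range. The site at 125134659 was listed in wild type only, at 0.182 and 0.176. Nsun2 (chromosome 13, 69612016 to 69635780, plus strand) held 2 sites, both listed in Tet2 KO only. One, at 69612114, lies 98 bases past the gene start whose promoter is printed above, with levels of 0.148 and 0.167. The other, at 69634320, had 0.111 and 0.261, so its replicates were further apart than those of any other of the 7 sites.

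**Figure D3:**
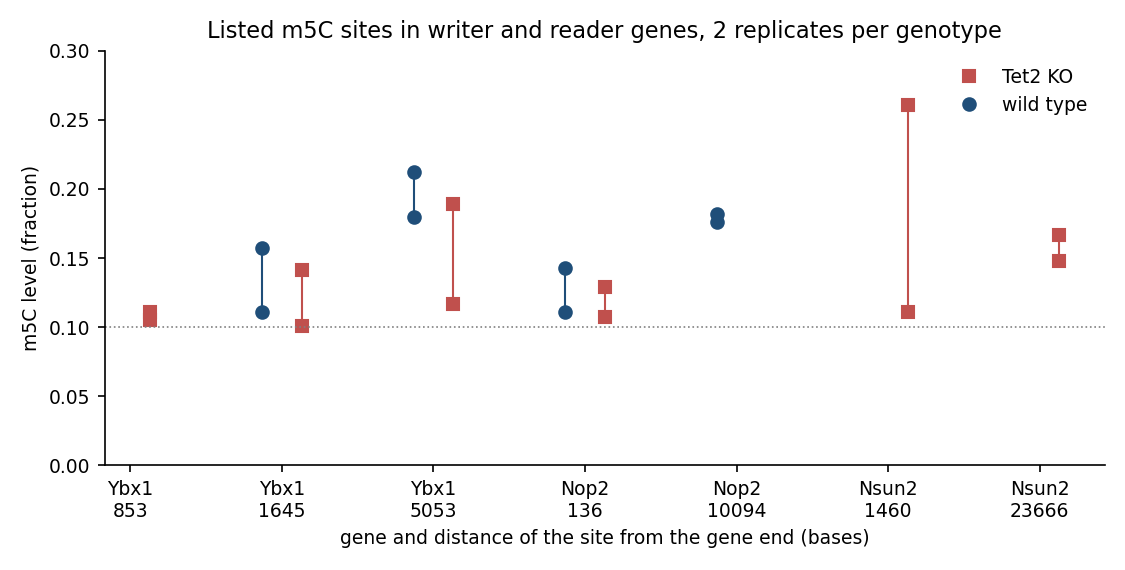
m5C level (fraction, vertical axis) of the 7 listed sites, ordered by gene and by distance in bases from the gene end. Circles are the 2 wild type and squares the 2 Tet2 KO replicates, joined by a line, and the dotted line marks 0.1, the lowest level listed. The 3 sites listed in both genotypes have overlapping replicates.

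For the 3 sites in both tables, the mean level in Tet2 KO was lower by 0.009 in Nop2 and by 0.013 and 0.043 in Ybx1. The median absolute gap over the 1039 sites listed in both genotypes was 0.040, so 1 of the 3 gaps was near it and the other two were smaller. On arcsine square root levels limma passed none of the 3 (adjusted p = 0.954, 0.932 and 0.867), and over all shared sites 0 passed (0%) and 79 had an unadjusted p under 0.05. The largest of the 3 differences on that scale was -0.06, with an interval from -0.20 to 0.08. A site listed in 1 genotype has no level in the other, since an unlisted position may be below 0.1 or not covered, and coverage, hence the depth behind each level, is not given. The 3 shared sites are 75% of those listed in these genes in wild type and 50% of those in Tet2 KO, and over all sites these shares were 25.2% and 21.7%.

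Holding a site was common for genes of this abundance. Of 268 protein-coding genes at 100 to 500 RPKM, the range of Ybx1 and Alyref, 49.3% held at least 1 listed site and 9.70% at least 3. For the range of Nsun2 (50 to 100 RPKM) 54.0% held at least 1, and for that of Nop2 (20 to 50 RPKM) 46.4%. At least 2 sites, the number in each of these genes, were held by 20.9% and 19.6%. The mean levels also lay inside the usual range. In wild type, between 31.2% and 77.5% of all listed sites had a lower mean level than the 4 sites of these genes, and in Tet2 KO between 9.85% and 71.7% had a lower one than the 6 listed there.

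Other genes of the pathway were taken from 6 lists of partners, paralogs and related enzymes, 46 genes in all, of which 30 were tested as loci of 1 symbol. Between the genotypes 0 of the 30 passed in limma. For the slope 3 of 30 passed, or 10.0%, near the 8.03% of all loci, and all 3 fell. Ythdf2, better known as the reader that sends RNA with N6-methyladenosine to decay, and also reported to bind m5C, fell from 22.1 and 24.5 RPKM at 0 h in wild type and Tet2 KO to 5.21 and 7.75 at 6 h (slope -0.29 per h, limma adjusted p = 0.0103). Nxt1, the cofactor of the export receptor that ALYREF hands messenger RNA to, fell from 20.1 and 19.9 to 1.91 and 2.55 RPKM (-0.45, adjusted p = 0.00725). Nop14, a nucleolar factor of the small ribosomal subunit, fell from 27.8 and 28.3 to 11.6 and 14.2 RPKM (-0.18, adjusted p = 0.0395).

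These 3 calls were not equally stable. All ended without the wild type 6 h library (limma adjusted p = 0.106 for Ythdf2, 0.0948 for Nxt1 and 0.206 for Nop14) and in the knockout libraries alone (0.390, 0.390 and 0.462). Ythdf2 also missed the threshold when either 0 h library was left out, at 0.0743 without the wild type one and 0.0549 without the other. For Nop14, leaving out any library but that of the knockout at 3 h ended the call, with adjusted p between 0.0710 and 0.206, as did quantile normalization (0.0980) and no filter on low values (0.0503). When libraries were centred on their medians, Nxt1 passed (0.0489), and neither Ythdf2 (0.0650) nor Nop14 (0.140) did.

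The other RNA m5C methyltransferases had little RNA. Of the list of 5, which also holds Mterf4, the partner of NSUN4, rows were found for 3. Trdmt1, the transfer RNA methyltransferase also called Dnmt2, was listed over 0, 3 and 6 h at 1.73, 4.78 and 4.03 RPKM for wild type and at 3.29, 6.28 and 6.95 for the knockout, higher at each time (log2 difference 0.55, limma adjusted p = 0.442). Nsun4, which methylates mitochondrial ribosomal RNA, was listed at 4.06, 4.25 and 2.10 RPKM for wild type and at 4.63, 23.8 and 4.13 for the knockout. Its genotype difference was 1.04 (adjusted p = 0.444), and the gap was widest at 3 h. Ybx2, a germ cell paralog of Ybx1, was listed at 18.1 RPKM in that same library and between 1.96 and 4.94 in the other 5. Nsun3, which methylates a mitochondrial transfer RNA, lay between 1.11 and 2.92 RPKM.

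Of the cold shock domain genes, Lin28a, a stem cell regulator of RNA, had the widest consistent genotype difference: wild type stood at 35.9, 43.9 and 39.3 RPKM and the knockout at 58.1, 67.3 and 65.5 (0.67, unadjusted p = 0.00474, limma adjusted p = 0.309). Its libraries did not overlap between the genotypes, and the share of all loci for which this holds is not given here. Among the 9 tested partners of messenger RNA export, the median genotype difference was 0.09 and the median slope -0.03 per h, with 8 of 9 slopes below 0. The median slope of all loci was lower, at -0.05, and that of the 9 turned to 0.02 with quantile normalization and to 0.05 with centred libraries. Among them, Thoc2 had the smallest p between the genotypes (log2 difference 0.56, adjusted p = 0.420), Poldip3 a slope of -0.12 (adjusted p = 0.134), and Thoc6 the smallest p for the slope difference (0.22 per h, adjusted p = 1.00). Among the 9 tested nucleolar genes the medians were 0.21 and 0.00. The nucleolar protein gene Nop9, at 29.8, 15.5 and 12.8 RPKM for wild type and 32.8, 31.8 and 20.4 for the knockout, had a slope of -0.15 (adjusted p = 0.0843), while Nop10, of the box H/ACA particles, had a slope of -0.02. The slope of Nop2, -0.14, was below those of all of these 9 except Nop14 and Nop9. Nop58, Nop56 and Ncl, whose rows join several symbols, were not tested. From 0 to 6 h, Nop58 fell from 270 to 115 RPKM in wild type and from 362 to 165 in Tet2 KO. Nop56 fell from 83.2 to 51.2 and from 131 to 86.3, while Ncl rose from 202 to 319 and from 407 to 437. Tet2, the 1 gene of the m5C oxidation list that was tested, had a slope of -0.17 (adjusted p = 0.0603) and a genotype difference of -0.32 (adjusted p = 0.593), so its RNA level did not separate the genotypes, and directions between them rest on the labels.

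**Figure D4:**
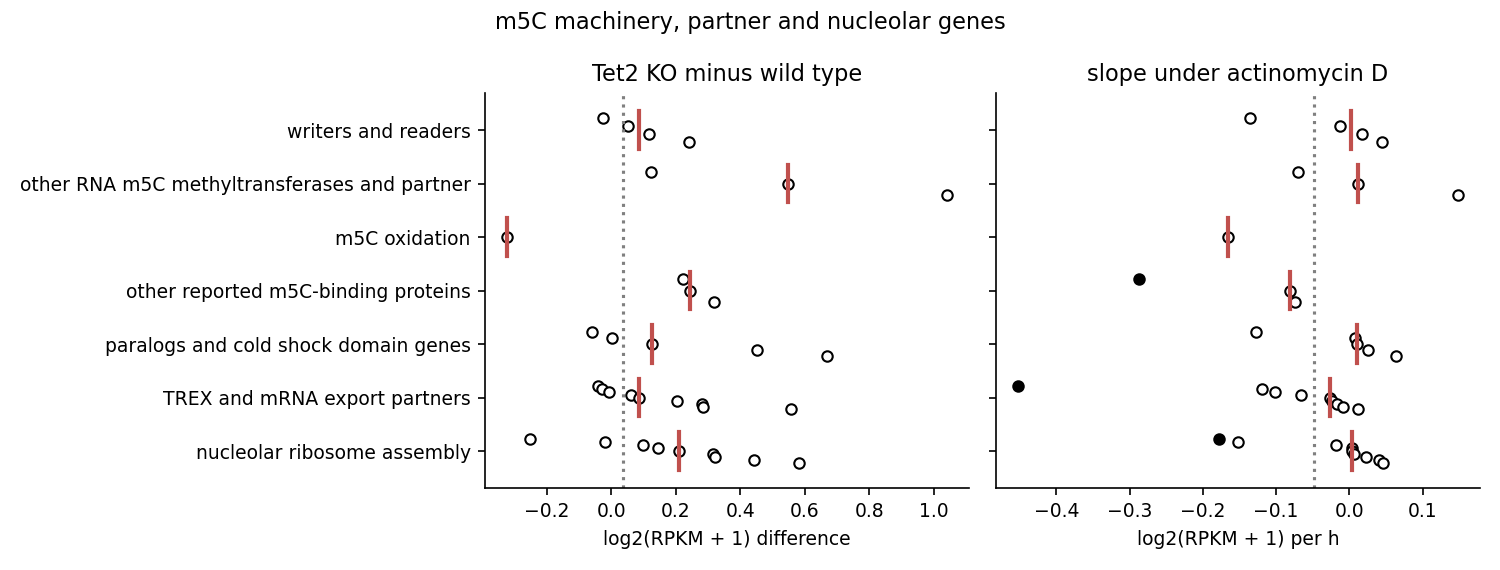
Each circle is 1 tested gene of the measured writers and readers or of a list, with Tet2 KO minus wild type differences in log2(RPKM + 1) on the left and slopes per h on the right. Filled circles passed at an adjusted p under 0.05, red bars are list medians and dotted lines the median of all loci. The 3 filled circles, all slopes, are Ythdf2, Nxt1 and Nop14.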

How the data were processed

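RNA levels are RPKM as deposited, per the file headers; the heading of 1 of the 6 columns lacks its first letter, and its values were taken to be RPKM too. Each site table gives, for both replicates of a genotype, the deposited m5C level as a fraction, per the file headers, with no coverage. The submitters' processing notes name Trimmomatic, Bowtie2, Cufflinks, MACS2 and DESeq2 and the builds mm10 and GRCm38. What each was used for, the use of strand and the rule for listing a site are not stated there. Values come from 10 of 18 samples, and the 8 others, of m5C immunoprecipitation and its input, were not analysed here.

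The main tests were moderated fits by limma (version 3.58.1, R 4.3.3) to log2(RPKM + 1), a scale that understates changes of low loci. Loci entered at a mean of 1 RPKM or more, with a mean trend, two-sided p and Benjamini-Hochberg adjustment at 0.05. Genotype had time as a block, and slopes had genotype as a factor. Shared sites were tested by limma on arcsine square root levels with no replicate block. The main tests were checked on simulated data with independent noise and no shifts between libraries. The planted effects were larger than those seen here in the writers and readers or their sites. Whether effects of the sizes seen here would be found was therefore not checked.

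Genes, lists and tests were chosen with earlier results of these data known. The 6 genes and all their sites are named, as are the 3 loci with the smallest root mean square profile difference from each, and, in each list, genes that passed. Up to 2 others of smallest p per contrast could be named, and not all of them are. Further list genes, Nsun3 among them, were named after their values were seen. List genes whose row joins several symbols were not tested. Gene spans and promoters are from RefSeq (GRCm38.p6).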

Additional observations from a re-analysis of the deposited data

How the results depend on the processing

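No alternative brought any of the 4 genes past the threshold: over 164 alternative values of their 12 results, 23 changed sign and the lowest limma adjusted p was 0.0701, for Nop2 at 6 h against 0 h. With quantile normalization the genotype difference was 0.00559 for Ybx1 and -0.0199 for Nop2, the slope of Nsun2 was 0.0202, and the slope difference was -0.0432 for Ybx1, -0.0401 for Alyref and -0.0165 for Nsun2. With libraries centred on their medians the slope of Nsun2 was 0.0667 and the slope difference of Alyref -0.00830. Centring also moved the slope of Nop2 from -0.14 to -0.06. The slope of Nsun2 was 0.00313 in the knockout alone, and 3 h against 0 h gave it a difference of 0.0912. Leaving out 1 library at a time, the genotype difference ran from -0.120 to 0.0628 for Ybx1 and from -0.0208 to 0.136 for Nop2. The slope ran from -0.0128 to 0.0543 for Alyref and from -0.0234 to 0.0132 for Nsun2. The slope difference ran from -0.0911 to 0.159 for Ybx1, from -0.151 to 0.18 for Alyref, from -0.0502 to 0.11 for Nsun2 and from -0.0841 to 0.0228 for Nop2. Of all loci, 9 passed between the genotypes, against 15 at a mean RPKM of at least 5, 4 with no filter, 3 with quantile normalization, 5 with no mean trend and 0 to 12 without 1 library (0 without any 1 of the 3 h and 6 h libraries). For the slope 952 passed, against 114 with quantile normalization, 69 with centred libraries, 64 for 3 h against 0 h, 1378 in wild type alone, 0 in Tet2 KO alone (1262 at an unadjusted p under 0.05) and 0 to 1476 without 1 library, with 0 without wild type 6 h. For the slope difference 0 passed, and 0 to 293 without 1 library. Of shared sites 0 passed at all settings, with 79 at an unadjusted p under 0.05, 87 with a replicate block and 91 on untransformed levels. Replicate numbers are not known to pair the samples (correlation -0.00); with the replicate block the 3 shared sites kept differences of -0.009, -0.013 and -0.043 and had adjusted p = 0.980, 0.967 and 0.873. Without 1 replicate the differences ran from -0.025 to 0.007 in Nop2 and from -0.036 to 0.010 and from -0.079 to -0.007 in Ybx1. At mean levels of at least 0.2 none of the 3 was left. Placing sites by a gene column was not run, since the site tables have none. Read numbers and coverage are not given, so the part of depth in these values is unknown.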

Other observations

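Of the 46 genes of the 6 related lists, Ddx39 had no RefSeq span under that symbol and was not searched for sites. The others held 51 listed sites in 24 genes, 9 in both genotypes, 21 in wild type only and 21 in Tet2 KO only. The strongest site shared by both genotypes was in Ybx3, the cold shock paralog of Ybx1, 280 bases from the gene start, at 0.298 and 0.336 for wild type and 0.4 and 0.381 for the knockout (limma adjusted p = 0.730). Lin28a held 3 sites, all listed in Tet2 KO only, the strongest at 0.538 and 0.5. Zc3h11a, a messenger RNA export factor, held a site at a level of 1 in both knockout replicates, not listed in wild type. Nsun4 held 1 site, listed in Tet2 KO only at 0.143 and 0.111. Other genes went the other way. Ncl, which encodes the nucleolar protein nucleolin, held 9 sites, 8 of them listed in wild type and 4 in Tet2 KO, with 3 in both genotypes. Nxf1 held 4 sites, 3 of them listed in wild type and 1 in Tet2 KO. Thoc6 held 1, listed in wild type only at 0.3 and 0.25. These genes were picked out after their values were seen, and whether an unlisted position was covered is not given.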
